A study of Mus musculus with 8 samples.

Results

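The clustered histone genes are the genes for linker histone H1 and for the core histones H2A, H2B, H3 and H4 that sit side by side in a few gene clusters. They were taken as every gene symbol in the deposited tables that begins with Hist1h, Hist2h, Hist3h or Hist4h, which gave 68 genes of 23354. By histone type there were 6 H1, 18 H2a, 19 H2b, 12 H3 and 13 H4 genes. By cluster, 54 lay in Hist1 on chromosome 13 (chr13:21715763-23934851), 10 in Hist2 on chromosome 3 (chr3:96219916-96270192), 3 in Hist3 on chromosome 11 (chr11:58948911-58956674) and 1, Hist4h4, on chromosome 6. Coordinates are those of the mm10 build.

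The libraries came from bone marrow-derived macrophages of male C57BL/6J mice aged 8 weeks, differentiated over 7 days with L929-conditioned medium. All cells carried a floxed Ern1 gene, which encodes the endoplasmic reticulum stress sensor IRE1α. Ern1f/fLyz2-Cre cells also carried Cre recombinase driven from Lyz2, a gene active in myeloid cells, and Ern1f/f cells did not. Each genotype was given IL-4 at 20 ng/ml for 24 hours, which induces alternative activation, or was left as an untreated control. The 4 groups, Ern1f/fLyz2-Cre IL-4, Ern1f/fLyz2-Cre control, Ern1f/f IL-4 and Ern1f/f control, had 2 libraries each, numbered replicate 2 and replicate 1. Where a group has a pair of values, they are those of replicate 2 and then of replicate 1. Groups follow the sample titles. A separate genotype entry in the labels names Ern1f/fLyz2-Cre for every replicate 2 and Ern1f/f for every replicate 1. It goes against the title in 4 libraries, and if it were right the replicate comparison would be the genotype comparison. Separate mice or cultures are not stated for the replicates, so p-values measure only the spread between these libraries.

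Most genes of this family are expressed while DNA is copied, when new chromatin needs histones in bulk. Their mRNAs are unusual in that they normally carry no poly(A) tail: they end just after a short stem-loop, which is bound by the protein SLBP and cleaved with the help of the U7 small nuclear RNP. When replication stops these mRNAs are degraded. Some of the genes can also make longer, polyadenylated mRNAs that run past the stem-loop, which is known for several members in cells that no longer divide. The labels describe total RNA extracted with TRIzol and standard Illumina library protocols. They do not say whether poly(A) RNA was selected, and this bears on every value below. In bulk libraries, a lower level in fewer cells and a lower level in every cell cannot be told apart.

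Expression is given as FPKM, the authors' fragments per kilobase of transcript, scaled to sequencing depth. The width of the authors' confidence bounds also implies a number of fragments for each value. Between 94.3% and 95.7% of histone values with 1 to 60 fragments came out whole within 0.02, depending on the library. Hist1h4k spans only 312 bases in the tables, so that 1 fragment of it was worth 0.306 to 0.508 FPKM, and small values of such short genes rest on few fragments. Of the genes tested below, 13 had a mean under 10 implied fragments. These counts cover counting error only. As a check of the groups, Ern1 measured 7.43 to 14.3 FPKM in Ern1f/fLyz2-Cre libraries and 9.11 to 11.54 FPKM in Ern1f/f libraries. Gene-level values cannot show the loss of some exons. Lyz2, which hosts the Cre, measured 2171 and 10949 FPKM in controls titled Ern1f/fLyz2-Cre and 17415 and 18114 FPKM in controls titled Ern1f/f. With IL-4 it measured 1572 and 5780 FPKM in libraries titled Ern1f/fLyz2-Cre and 11961 and 8901 FPKM in those titled Ern1f/f. Within each treatment the titled genotypes thus lay apart, whereas libraries sorted by the genotype entry overlapped. The macrophage markers Csf1r (356 to 870 FPKM) and Cd68 (669 to 1001 FPKM) were high in every library.

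The stem-loop and the sequence after it are shown first, because the end of the annotated transcript differs among the members. The histone stem-loop was searched on the sense strand of the GENCODE M21 transcripts, and 46 of the 68 genes held a match, against 10 other genes among 55341 in all. The commonest form, shared by 26 genes of types H1, H2a, H2b and H3, was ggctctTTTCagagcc, and the commonest among H4 genes, shared by 7, was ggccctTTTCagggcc. Capitals mark the loop in these and the whole stem-loop in the windows below, which are written 5′ to 3′.
Hist1h1c: ccaaaaGGCTCTTTTCAGAGCCaccactcc
Hist3h2a: accaaaGGCTCTTTTCAGAGCCacccacaa
Hist1h2bg: cccaaaGGCTCTTTTCAGAGCCacccatac
Hist2h3c1: cacaaaGGCTCTTTTCAGAGCCaccacagc
Hist1h4i: cttaaaGGCCCTTTTTAGGGCCaccacaaa
Hist1h4m: actaaaGGCCCTTTTCAGGGCCatc
Hist4h4: cacaaaGGCCCTTTTCAGGGCCcacaaagc
These windows lie at chr13:23739506-23739535 on the plus strand, chr11:58955166-58955195 on the plus strand, chr13:23571837-23571866 on the plus strand, chr3:96247321-96247350 on the plus strand, chr13:22040958-22040987 on the minus strand, chr13:21812123-21812147 on the plus strand and chr6:136803990-136804019 on the minus strand, in the order shown (GRCm38, the same assembly as mm10). The transcript models end at very different distances from the stem-loop. Behind it, Hist1h4m had 3 further bases, Hist1h2bg 155, Hist1h4i 330, Hist1h1c 840, Hist2h3c1 1167, Hist3h2a 1643 and Hist4h4 2445.

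Levels are set beside the annotated ends as a description. These ends are those of GENCODE M21, whereas the FPKM rest on the authors' loci, which do not always reach the stem-loop. The authors' locus of Hist1h4d ends at chr13:23581913, before its stem-loop window, which starts at chr13:23581944. Of the 23 genes whose model runs over 100 bases past the stem-loop, 15 reached 1 FPKM in at least 2 libraries. The mean levels of these 23 had a median of 1.18 FPKM and ranged from 0.0152 to 58.1 FPKM. Hist1h1d, with 4884 bases past the stem-loop, had a mean of 0.213 FPKM, and Hist1h2ac, with 2010, had 0.177 FPKM. Of the 23 genes whose model stops within 100 bases, 7 reached 1 FPKM in at least 2 libraries and the median was 0.353 FPKM. The 22 genes with no match had 8 that reached it and a median of 0.237 FPKM. They include the most abundant member, Hist1h2bc, whose model has 2 exons. A missing match describes the model and does not show that the gene lacks a stem-loop. Some of these models are short, with 312 bases for Hist1h4k, 393 for Hist1h2ak and 399 for Hist1h2af. A stem-loop behind the end of a model could not be found. At least 1 FPKM in at least 2 libraries was also the requirement for testing a gene, so 30 of the 68 clustered histone genes were tested.

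The promoters also differ by histone type. RefSeq promoters of 300 bases (250 before the start and 50 from it on, GRCm38.p6) were found for 61 members. The CCAAT box, searched as CCAAT and as ATTGG on the other strand, was in all promoters of types H1 (6), H2a (17), H2b (16) and H3 (10), but in 3 of 12 H4 promoters, and in 37.4% of the 32851 promoters of all genes. The TATA box, searched as TATAAA on both strands, was in 57.4% of members and in 13.6% of all promoters. The octamer ATTTGCAT, or ATGCAAAT on the other strand, was in 7 of 17 H2a and 6 of 16 H2b promoters, in no H1, H3 or H4 promoter, and in 1.74% of all promoters. None of these words contains another. They were counted anywhere in the 300 bases, so a TATAAA can lie far from the start, as at -137 in Hist1h4i. Promoters of neighbouring genes on opposite strands can overlap, as those of Hist1h2ae and Hist1h2bg do, so that 1 site can count for both genes. The 150 bases before the start of the highest H1, H2a and H4 genes and of Hist1h2af are shown, since their levels differed in different ways below. Capitals mark the motifs.
Hist1h1c: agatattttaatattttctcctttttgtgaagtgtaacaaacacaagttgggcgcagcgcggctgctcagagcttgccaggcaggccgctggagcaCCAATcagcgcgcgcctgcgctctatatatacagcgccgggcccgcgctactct
Hist3h2a: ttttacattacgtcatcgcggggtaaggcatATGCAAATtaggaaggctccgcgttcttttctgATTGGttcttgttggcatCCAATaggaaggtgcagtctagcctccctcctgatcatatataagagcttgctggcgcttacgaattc
Hist1h2af: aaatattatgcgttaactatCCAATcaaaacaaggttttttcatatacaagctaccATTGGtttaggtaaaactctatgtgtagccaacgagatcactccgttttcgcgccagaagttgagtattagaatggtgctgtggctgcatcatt
Hist1h4k: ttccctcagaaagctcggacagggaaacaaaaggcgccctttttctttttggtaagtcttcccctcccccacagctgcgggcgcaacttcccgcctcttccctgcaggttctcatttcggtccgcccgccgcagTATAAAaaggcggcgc
They lie at chr13:23738657-23738806 (plus), chr11:58954535-58954684 (plus), chr13:23533725-23533874 (plus) and chr13:21750554-21750703 (minus). A match is a description of the letters and does not show that a factor binds there.

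In these libraries the summed FPKM of the clustered histone genes was dominated by a pair of genes. Hist1h2bc, an H2B gene (chr13:23684199-23692480), and Hist1h1c, which encodes an H1 linker histone (chr13:23738807-23740367), together held 64.9% to 77.5% of the summed FPKM of all 68 genes. Of the 68, 5 were at 0 in all 8 libraries (Hist1h2aa, Hist1h2ba, Hist1h2bq, Hist1h2br and Hist1h4n), 32 were above 0 in all 8, and 10 had at least 1 FPKM in all 8. The 38 genes that were not tested never exceeded 1.45 FPKM. A mean of at least 10 FPKM was reached by 5 genes.

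Hist1h2bc measured 170.2 and 212 FPKM in Ern1f/fLyz2-Cre IL-4, 163 and 244 FPKM in Ern1f/fLyz2-Cre control, 138 and 185 FPKM in Ern1f/f IL-4 and 149 and 238 FPKM in Ern1f/f control libraries. Every replicate 2 library was below every replicate 1 library. Hist1h1c measured 57.6 and 49.0 FPKM in Ern1f/fLyz2-Cre IL-4, 61.7 and 63.5 FPKM in Ern1f/fLyz2-Cre control, 55.1 and 60.4 FPKM in Ern1f/f IL-4 and 48.0 and 69.8 FPKM in Ern1f/f control libraries. The Ern1f/fLyz2-Cre control pair lay above both IL-4 pairs, and the Ern1f/f control pair overlapped every other group. The next H1 gene, Hist1h1e, measured 0.215 and 0.287 FPKM, 0.542 and 0.351 FPKM, 0.323 and 0.219 FPKM, and 0.163 and 0.203 FPKM in the same groups.

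Among H2A genes Hist3h2a (chr11:58954685-58956674) was the highest. It measured 10.04 and 11.7 FPKM in Ern1f/fLyz2-Cre IL-4, 9.66 and 15.9 FPKM in Ern1f/fLyz2-Cre control, 11.46 and 12.8 FPKM in Ern1f/f IL-4 and 10.8 and 14.0 FPKM in Ern1f/f control libraries. The second, Hist1h2af (chr13:23533911-23534303), measured 1.403 and 13.7 FPKM, 1.32 and 11.2 FPKM, 1.49 and 9.67 FPKM, and 0.484 and 10.2 FPKM in the same 4 groups. Its level thus followed the replicate number in every group. The second H2B gene, Hist1h2bg, measured 3.95 and 3.16 FPKM, 3.27 and 5.70 FPKM, 2.65 and 2.77 FPKM, and 3.04 and 4.84 FPKM in those groups. Both Ern1f/f IL-4 libraries were below the other 6.

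The H3 genes were low. Hist2h3c1 measured 4.38 and 2.08 FPKM in Ern1f/fLyz2-Cre IL-4, 2.75 and 2.01 FPKM in Ern1f/fLyz2-Cre control, 2.67 and 1.59 FPKM in Ern1f/f IL-4 and 1.47 and 1.90 FPKM in Ern1f/f control libraries. Hist1h3d measured 3.07 and 1.96 FPKM, 2.78 and 2.34 FPKM, 1.34 and 2.22 FPKM, and 2.33 and 1.83 FPKM in the same groups. Both pairs from Ern1f/fLyz2-Cre cells were above the Ern1f/f controls for Hist2h3c1, and for Hist1h3d the Ern1f/fLyz2-Cre controls were above both Ern1f/f groups. The H4 genes, which encode the same core histone from many loci, were the type with the most members detected: 12 of 13 were tested, against 1 of 6 H1, 6 of 18 H2a, 7 of 19 H2b and 4 of 12 H3 genes. Hist1h4k (chr13:21750194-21750505) measured 6.91 and 11.2 FPKM in Ern1f/fLyz2-Cre IL-4, 18.7 and 17.3 FPKM in Ern1f/fLyz2-Cre control, 11.8 and 19.0 FPKM in Ern1f/f IL-4 and 9.80 and 12.7 FPKM in Ern1f/f control libraries, from 18 to 44 implied fragments each. Hist1h4i (chr13:22040816-22041352) measured 13.2 and 9.31 FPKM, 13.7 and 11.03 FPKM, 12.1 and 10.0003 FPKM, and 16.8 and 11.4 FPKM in those groups. By group mean Hist1h4k was lowest in Ern1f/fLyz2-Cre IL-4, although that pair overlapped the Ern1f/f control pair. Hist1h4i, in contrast, was higher in replicate 2 of every group.

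**Figure D1:**
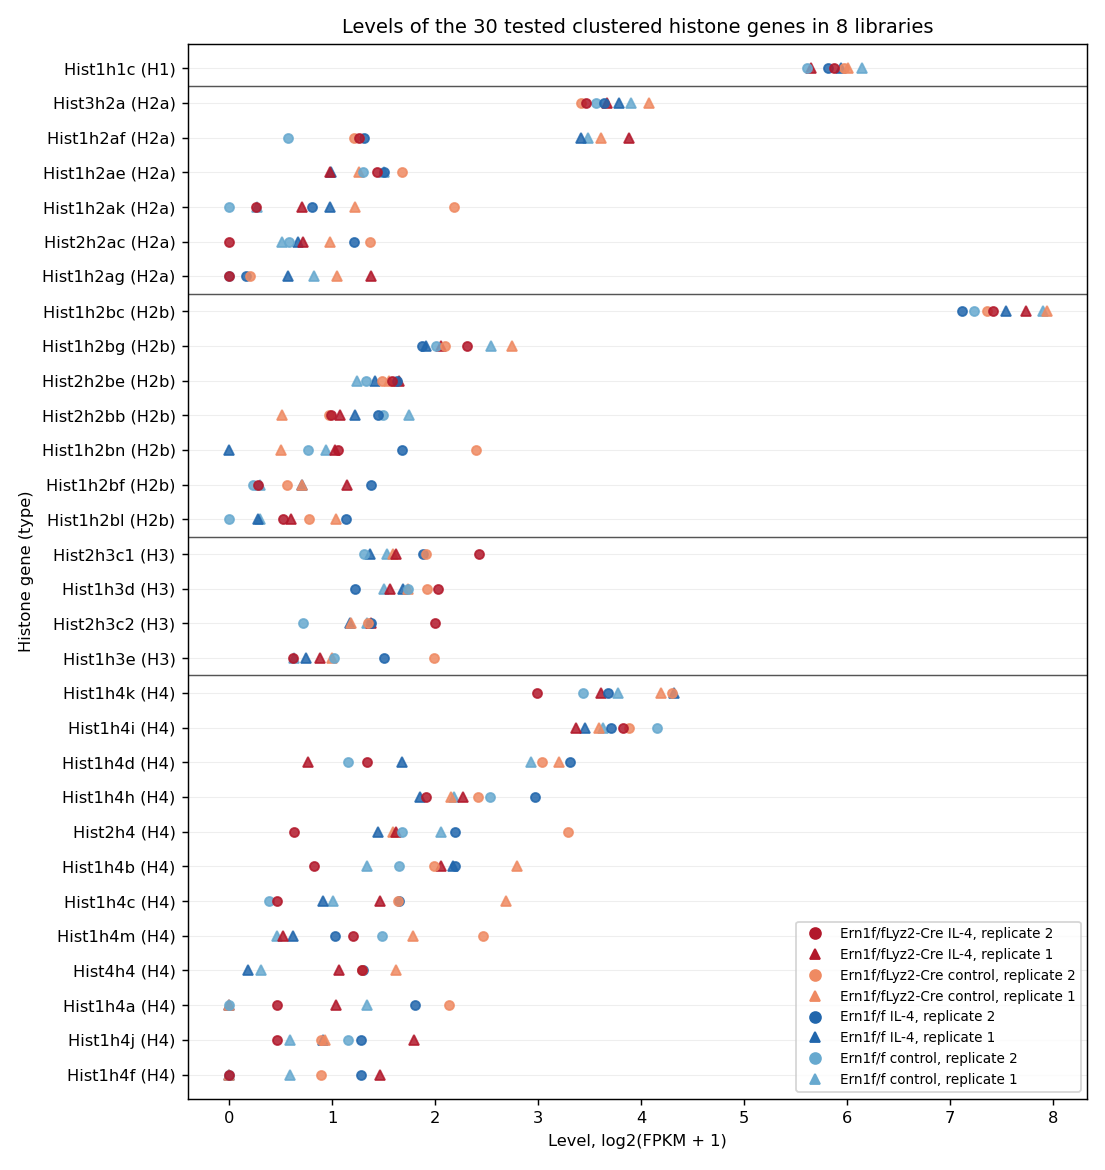
Levels of the 30 tested clustered histone genes as log2(FPKM + 1), 1 row per gene grouped by histone type, with a point for each of the 8 libraries (colour gives the group, circles replicate 2 and triangles replicate 1). Hist1h2bc and Hist1h1c stand far above the rest, and the circles of Hist1h2af, at 0.484 to 1.49 FPKM, are apart from its triangles, at 9.67 to 13.7 FPKM.

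Members of a type resemble each other in sequence, so that fragments can be split among them. The median share of 50-base windows of a gene's transcript that also occur in another gene was 73.0% for H2a, 62.0% for H3, 44.1% for H2b, 39.5% for H4 and 1.13% for H1 genes. It was 94% for Hist1h2af, whose closest partner was Hist1h2ad, 71.5% for Hist1h4k, 31.5% for Hist3h2a, all of it also in the non-histone gene Trim17, 30.6% for Hist1h2bc, 28.9% for Hist1h4i and 8.54% for Hist1h1c. All windows of Hist2h2bb are shared with Gm20628. Windows were counted over GENCODE M21 transcripts, which for some H4 genes run past the authors' loci. Hist1h4d, with a share of 10.2%, has a transcript of 1138 bases and a locus of 312. The share within the loci alone was not counted. In the tables the loci of Hist1h4m and Hist1h4n overlap, as do those of Hist1h1e and Hist1h2be, Hist1h2ao and Hist1h2ap, and Hist2h2aa1 and Hist2h2aa2. How the authors treated fragments with several matches is not given in the sources used here, and values of single members within a type are uncertain to that extent.

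Summed by type, the H4 genes were highest in Ern1f/fLyz2-Cre controls. Their summed level was 34.2 ± 6.54 FPKM in Ern1f/fLyz2-Cre IL-4 cells, 63.9 ± 7.18 FPKM in Ern1f/fLyz2-Cre controls, 49.1 ± 10.8 FPKM in Ern1f/f IL-4 cells and 42.4 ± 0.941 FPKM in Ern1f/f controls (SD, n = 2 each). The 2 Ern1f/fLyz2-Cre controls (69.0 and 58.8 FPKM) were above the other 6 libraries and the 2 Ern1f/fLyz2-Cre IL-4 libraries (29.6 and 38.9 FPKM) below them. Without Hist1h4k the order of the group means was the same, but the libraries no longer lay apart in this way. Then Ern1f/f IL-4 replicate 1 (22.5 FPKM) was below both Ern1f/fLyz2-Cre IL-4 libraries (22.7 and 27.6 FPKM), and Ern1f/f IL-4 replicate 2 (44.9 FPKM) was above Ern1f/fLyz2-Cre control replicate 1 (41.5 FPKM). Fibroblast markers moved in the same direction as the H4 genes in some comparisons. Of them, 7 of 7 tested were higher in Ern1f/fLyz2-Cre than in Ern1f/f controls (median log2 difference 0.28). With IL-4 in Ern1f/fLyz2-Cre cells 7 of 7 were lower (median -0.69), with none called in either. The interaction medians were -0.10 for the markers and -0.83 for the H4 genes. Elsewhere the directions were opposite. With IL-4 in Ern1f/f cells the marker median was -0.58, against 0.23 for the H4 genes. For genotype with IL-4 it was 0.17, against -0.23, and for replicate 2 minus replicate 1 it was -3.09, against 0.17. The part of fibroblasts in the H4 levels was not tested. The H3 sum was lowest in Ern1f/f controls at 7.24 ± 0.00466 FPKM, against 10.8 ± 1.77 FPKM in Ern1f/fLyz2-Cre IL-4, 12.1 ± 3.20 FPKM in Ern1f/fLyz2-Cre control and 11.2 ± 3.54 FPKM in Ern1f/f IL-4 cells. The H1 sum of the Ern1f/fLyz2-Cre controls (62.9 and 64.4 FPKM) was above those of Ern1f/fLyz2-Cre IL-4 (58.1 and 49.7 FPKM) and Ern1f/f IL-4 libraries (56.1 and 61.0 FPKM). The H2a and H2b sums overlapped between the groups, and H2a followed the replicate number, with 14.0 to 20.2 FPKM in replicate 2 and 27.3 to 34.3 FPKM in replicate 1 libraries. Much of that gap came from Hist1h2af, whose levels are given above, and without this gene the H2a sums of the replicate numbers overlapped. Of the 6 H2a genes tested, 3 were higher and 3 lower in replicate 2. These sums were not tested, because they are scores over a chosen list.

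**Figure D2:**
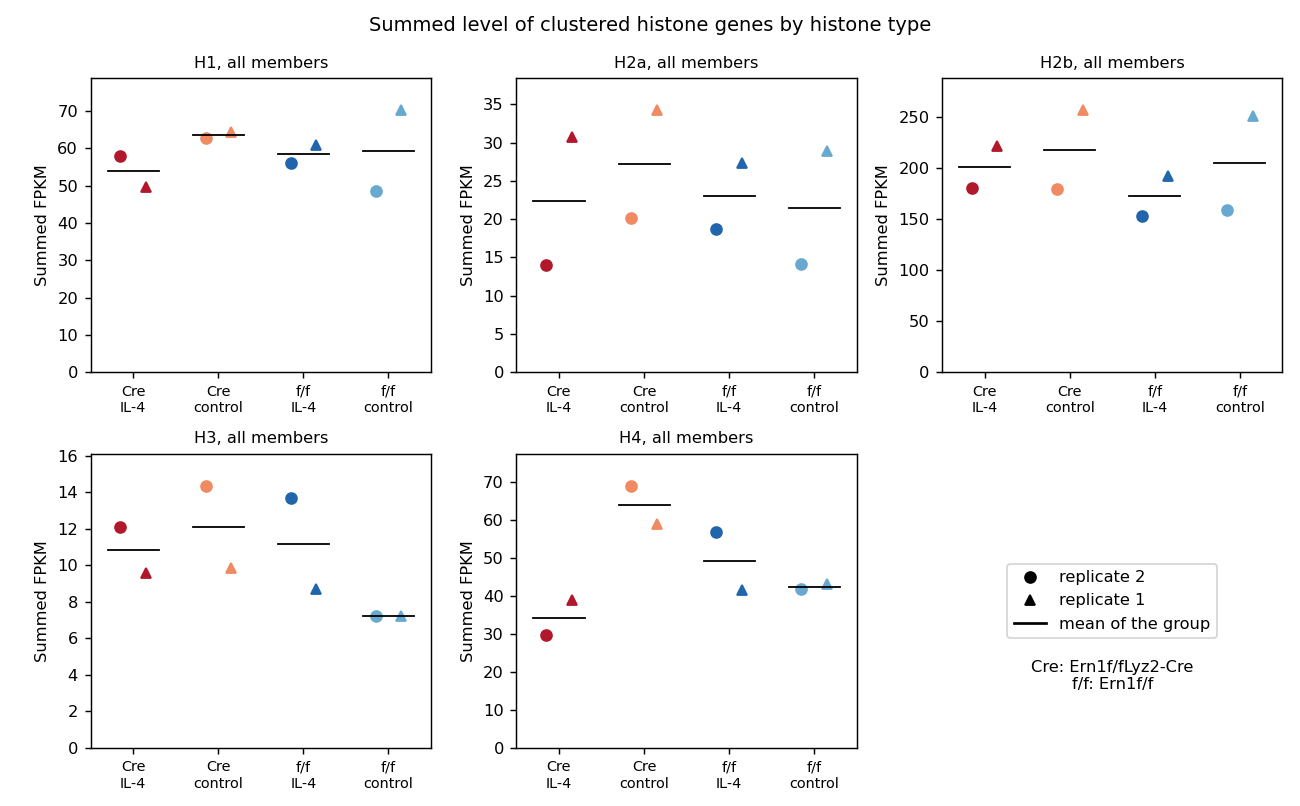
Summed FPKM of the clustered histone genes of each type in the 8 libraries, by group, with circles for replicate 2, triangles for replicate 1 and a line at the group mean. The H4 panel has the Ern1f/fLyz2-Cre controls highest (58.8 and 69.0 FPKM) and the Ern1f/fLyz2-Cre IL-4 libraries lowest (29.6 and 38.9 FPKM), and the H2a panel has every circle below every triangle.

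The first comparison asks whether IL-4 changed histone mRNA in macrophages with Cre. In Ern1f/fLyz2-Cre cells, 21 of the 30 tested genes had lower and 9 higher levels with IL-4, with a median log2 difference of -0.24, against -0.02 over all 10934 genes tested. None of the 30 passed limma's test with Benjamini-Hochberg adjustment (smallest adjusted p = 0.441), in which 0.0549% of all genes were called. At an unadjusted p under 0.05 there were 5, against 8.53% of all genes. Lower in both replicate numbers were 13, against 33.6% of all genes, and higher in both 5, against 31.3%. The 5 with the unadjusted p under 0.05 were the H4 genes Hist1h4d, Hist1h4m and Hist1h4k and the H2A genes Hist1h2ak and Hist2h2ac, and each was lower with IL-4.

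Hist1h4m, an H4 gene at chr13:21811746-21812150, measured 1.31 and 0.436 FPKM in Ern1f/fLyz2-Cre IL-4 libraries and 4.52 and 2.44 FPKM in Ern1f/fLyz2-Cre controls. The groups did not overlap, and the log2 difference was -1.26 ± 0.45 (SE). Hist1h4d measured 1.54 and 0.703 FPKM in Ern1f/fLyz2-Cre IL-4 libraries, from 4 and 2 implied fragments, and 7.23 and 8.20 FPKM in Ern1f/fLyz2-Cre controls, from 17 and 18. Its log2 difference was -2.07 ± 0.72. For Hist1h4k, given above, the log2 difference was -0.95 ± 0.30, with an interval (95%) of -1.68 to -0.22.

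The H2A pair was of lower level. Hist1h2ak measured 0.200 and 0.631 FPKM in Ern1f/fLyz2-Cre IL-4 libraries and 3.53 and 1.33 FPKM in Ern1f/fLyz2-Cre controls, a log2 difference of -1.22 ± 0.36. Hist2h2ac was at 0 and 0.645 FPKM in Ern1f/fLyz2-Cre IL-4 libraries and at 1.57 and 0.973 FPKM in Ern1f/fLyz2-Cre controls, a log2 difference of -0.81 ± 0.33. Both gave at most 16 implied fragments in any library. Of the abundant genes, Hist1h1c had a log2 difference of -0.23 (interval -0.73 to 0.27) and Hist1h2bc of -0.07 (interval -0.85 to 0.71), both of which take in 0.

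With the replicate number as a block, 3.32% of all genes were called and 1 of the 30 histone genes, Hist1h4m (limma, Benjamini-Hochberg adjusted p = 0.0198), while 8 had an unadjusted p under 0.05, against 21.5% of all genes. Its differences within replicate 2 and within replicate 1 were -1.26 and -1.26. That call by limma was lost without Ern1f/fLyz2-Cre IL-4 replicate 2 (limma adjusted p = 0.129) or 1 (0.172) and without Ern1f/fLyz2-Cre control replicate 2 (0.0693) or 1 (0.0970). The levels of Hist1h4m rested on 2 to 22 implied fragments per library. In Hist1h4m, 89.8% of windows are shared with other genes, chiefly Hist1h4n, which was listed at 0.

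In Ern1f/f cells the same treatment gave no member with an unadjusted p under 0.05, against 6.16% of all genes. Levels were higher with IL-4 for 17 of 30 and lower for 13, with a median log2 difference of 0.21, against -0.04 over all genes. By limma no gene of the 10934 passed the adjustment (0% called). With the replicate block 2.12% of all genes were called and none of the 30, of which 1, Hist1h4i, had an unadjusted p under 0.05 (16.3% of all genes). Higher in both replicate numbers were 8, against 24.1% of all genes, and lower in both 4, against 37.1%. The smallest p without the block belonged to the H2B gene Hist1h2bf, which measured 1.60 and 0.636 FPKM in Ern1f/f IL-4 libraries and 0.174 and 0.229 FPKM in Ern1f/f controls. Its log2 difference was 0.78 (interval -0.10 to 1.66). Within replicate 2 the median of the 30 was 0.46 and within replicate 1 it was -0.14, so the direction rested on replicate 2.

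The second question is whether Cre made a difference within a treatment. In control cells 27 of the 30 histone genes had higher levels in Ern1f/fLyz2-Cre than in Ern1f/f, against 49.4% of all genes, and the median log2 difference was 0.35, against 0.00 over all genes. The count rested in part on 1 library, since without Ern1f/f control replicate 2 it was 19 of 30 (median 0.25), and 17 of 30 with the replicate block as well (median 0.13). The medians within replicate 2 and within replicate 1 were 0.49 and 0.21. With all libraries the H4 genes had a median of 0.61, the H2a genes 0.30, the H3 genes 0.28 and the H2b genes 0.24. In both replicate numbers 18 were higher, against 23.3% of all genes, and 3 were lower, against 18.8% of all genes. With or without the block limma called no gene of the 10934 (0% called). At an unadjusted p under 0.05 there were 4 of the 30, against 0.247% of all genes, and with the block 7, against 1.25% of all genes.

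Those 4 were Hist1h2ak, Hist1h4c, Hist1h4m and Hist2h2bb. Hist1h2ak measured 3.53 and 1.33 FPKM in Ern1f/fLyz2-Cre controls and 0 and 0.208 FPKM in Ern1f/f controls, a log2 difference of 1.56 ± 0.36 (SE). Hist1h4c measured 2.13 and 5.46 FPKM in Ern1f/fLyz2-Cre controls and 0.306 and 1.02 FPKM in Ern1f/f controls, a log2 difference of 1.47 ± 0.52. Both pairs of groups were apart, on 16 or fewer fragments. Hist1h4m measured 4.52 and 2.44 FPKM in Ern1f/fLyz2-Cre controls and 1.81 and 0.381 FPKM in Ern1f/f controls, a log2 difference of 1.15 ± 0.45. The H2B gene Hist2h2bb (chr3:96269700-96270192) went the other way, with 0.958 and 0.431 FPKM in Ern1f/fLyz2-Cre controls and 1.81 and 2.36 FPKM in Ern1f/f controls, a log2 difference of -0.88 ± 0.22. The adjusted p of each was 1 (limma, Benjamini-Hochberg).

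With IL-4 the genotypes were closer. Levels were higher in Ern1f/fLyz2-Cre than in Ern1f/f for 14 of the 30 and lower for 16, with a median log2 difference of -0.08, against 0.02 over all genes. By limma no gene passed the adjustment (0% called), and none of the 30 had an unadjusted p under 0.05, against 0.384% of all genes. With the block 1 gene of the 10934, not one of the 30, was called (0.00915%), and 1 of the 30, Hist1h4k, had an unadjusted p under 0.05, against 1.73% of all genes. Higher in both replicate numbers were 4 of the 30, against 28.8% of all genes, and lower in both 7, against 17.3%. Hist1h4k had the smallest p among the 30, with 6.91 and 11.2 FPKM in Ern1f/fLyz2-Cre IL-4 and 11.8 and 19.0 FPKM in Ern1f/f IL-4 libraries and a log2 difference of -0.70 (interval -1.42 to 0.03). The medians within replicate 2 and within replicate 1 were -0.50 and 0.19, of opposite sign.

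The difference between the IL-4 responses of the genotypes was tested as an interaction. The IL-4 difference was lower in Ern1f/fLyz2-Cre than in Ern1f/f cells for 22 of the 30 histone genes, among them 11 of 12 H4 genes, with a median of -0.23 against 0.01 over all genes and -0.83 for the H4 genes. Of the H4 genes tested, only Hist1h4i was above 0 within replicate 2 (0.39). Within replicate 1, Hist1h4a (2.37), Hist1h4f (2.06), Hist2h4 (0.64), Hist1h4j (0.54) and Hist1h4h (0.44) were above 0 and the rest below. Over the 30 the median was -0.75 within replicate 2 and -0.06 within replicate 1. Leaving out 1 library moved it between -0.74 without Ern1f/f IL-4 replicate 1 and -0.10 without Ern1f/f IL-4 replicate 2. With the replicate block and without Ern1f/f IL-4 replicate 2, 15 were lower and 15 higher. By limma no gene of the 10934 passed the adjustment, whether blocked or not (0% called). At an unadjusted p under 0.05 there were 5 of the 30, against 0.174% of all genes, and with the block 8, against 0.942% of all genes. Lower in both replicate numbers were 13, against 18.2% of all genes, and higher in both 2, against 26.7%. The 5 were Hist1h2ak (-1.97 ± 0.50, SE), Hist1h4k (-1.34 ± 0.42), Hist2h2ac (-1.21 ± 0.46), Hist1h4b (-1.64 ± 0.64) and Hist1h4d (-2.52 ± 1.02). Hist1h4b measured 0.768 and 3.16 FPKM in Ern1f/fLyz2-Cre IL-4, 2.98 and 5.92 FPKM in Ern1f/fLyz2-Cre control, 3.56 and 3.53 FPKM in Ern1f/f IL-4 and 2.14 and 1.52 FPKM in Ern1f/f control libraries. Their adjusted p by limma was 1 after rounding. The Ern1f/fLyz2-Cre controls enter this comparison as well as the IL-4 and genotype comparisons above, so the 3 sets of differences are not independent.

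**Figure D3:**
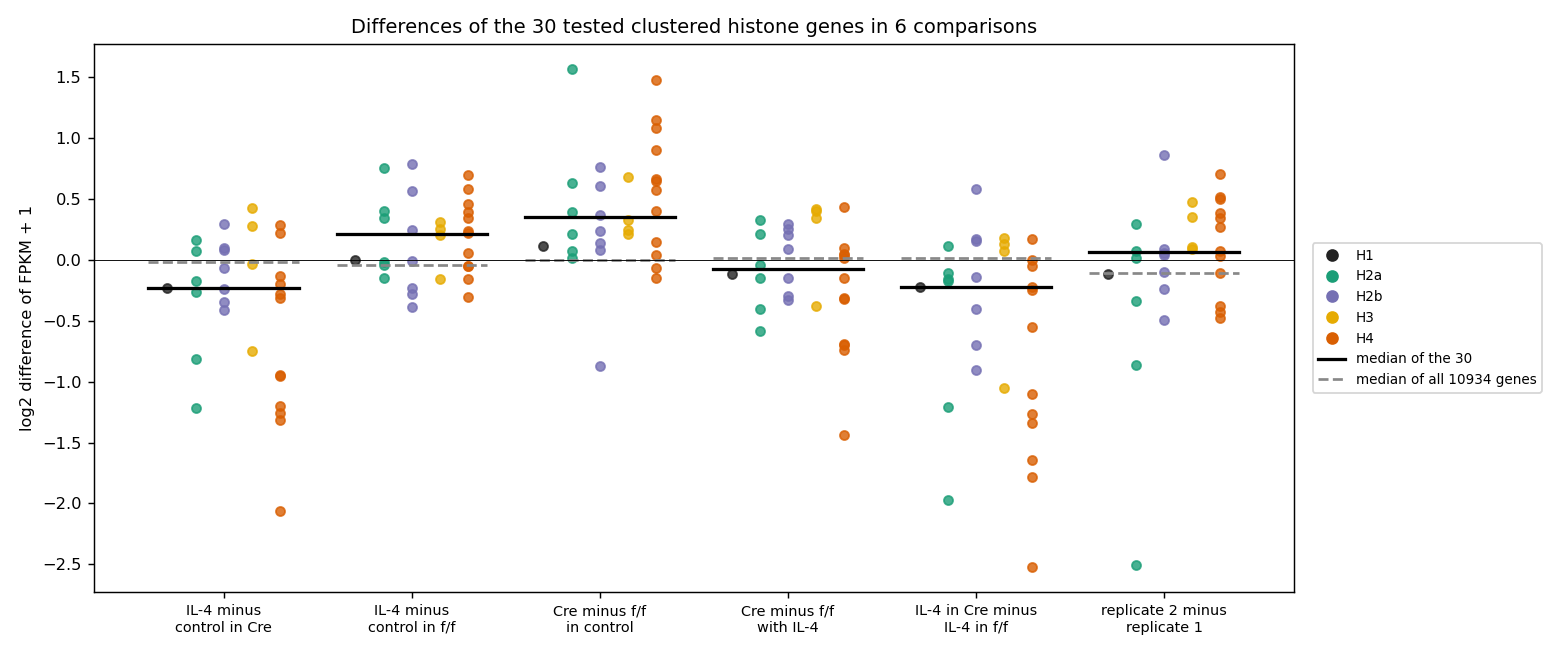
Log2 differences of FPKM + 1 for the 30 tested clustered histone genes (points, coloured by histone type) in 6 comparisons, with the median of the 30 (black line) and of all 10934 tested genes (grey dashed line). H4 points reach furthest down for IL-4 in Ern1f/fLyz2-Cre (-2.07) and for the interaction (-2.52), and the histone median lies above that of all genes for genotype in control cells (0.35 against 0.00).

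The replicate number was compared last. Between replicate 2 and replicate 1 libraries, adjusted for group, 6 of the 30 passed limma's test with Benjamini-Hochberg adjustment, in which 33.4% of all genes were called, and 7 had an unadjusted p under 0.05, against 46.1% of all genes. Lower in replicate 2 were Hist1h2af, Hist1h2ag, Hist1h2bc and Hist3h2a, and higher were Hist1h4m and Hist1h4i. Every replicate 2 library was below every replicate 1 library for the first 4, against 22.4% of all genes, and above for Hist1h4i, against 9.33% of all genes.

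The largest of these differences was that of Hist1h2af, whose levels are given above. They rested on 3 to 8 implied fragments in replicate 2 libraries and 49 to 87 in replicate 1 libraries, and the log2 difference was -2.51 ± 0.14 (SE, limma adjusted p = 0.000202). It passed under each of 18 alternative settings. The related H2A gene Hist1h2ag measured 0, 0.148, 0.124 and 0 FPKM in replicate 2 libraries and 1.60, 1.06, 0.486 and 0.774 FPKM in replicate 1 libraries, in the order Ern1f/fLyz2-Cre IL-4, Ern1f/fLyz2-Cre control, Ern1f/f IL-4 and Ern1f/f control (log2 difference -0.86 ± 0.17, limma adjusted p = 0.0119). Among genes not tested, the H2B gene Hist3h2ba was at 0 in each replicate 2 library and at 0.216 to 0.347 FPKM, from 3 to 5 fragments, in replicate 1 libraries.

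Hist1h2bc, on 2255 to 4583 fragments per library, differed by -0.50 ± 0.09 (limma adjusted p = 0.00866) and Hist3h2a by -0.34 ± 0.10 (adjusted p = 0.0458). The H4 genes Hist1h4m and Hist1h4i rose instead, Hist1h4m by 0.70 ± 0.12 (limma adjusted p = 0.00774) and Hist1h4i by 0.38 ± 0.08 (adjusted p = 0.0137). Of 18 alternatives, Hist1h2bc and Hist1h4m passed in 17, Hist1h2ag in 14, Hist1h4i in 13 and Hist3h2a in 4. The median over all genes was -0.11 here and -0.02 with median-of-ratios scaling, under which Hist3h2a did not pass (limma adjusted p = 0.101). Hist4h4, alone in its cluster, measured 1.44 and 1.09 FPKM in Ern1f/fLyz2-Cre IL-4, 1.45 and 2.07 FPKM in Ern1f/fLyz2-Cre control, 1.46 and 0.138 FPKM in Ern1f/f IL-4 and 1.44 and 0.237 FPKM in Ern1f/f control libraries. Its replicate 2 values lay within 1.44 to 1.46 FPKM, while its replicate 1 values were apart by genotype.

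Other RNAs moved with the replicate number too. The summed level of the fibroblast markers, of which 7 of 7 tested were called lower, was 2.08, 3.21, 8.49 and 9.11 FPKM in replicate 2 and 273, 601, 97.9 and 221 FPKM in replicate 1 libraries, in the order of groups used for Hist1h2ag. Only Lum of the 8 fibroblast markers was at 0 in any library, in replicate 2 of both IL-4 groups. Of 8 macrophage markers 2 were called higher and 2 lower in replicate 2, both neutrophil markers tested were called higher, and of 2 B cell markers tested 1 was called higher and 1 lower. The summed B cell markers ranged over 5.49 to 16.9 FPKM in replicate 2 and 1.21 to 4.19 FPKM in replicate 1 libraries, and the erythroid markers over 0.173 to 1.34 FPKM in all. The part of these cells in the histone differences was not tested.

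**Figure D4:**
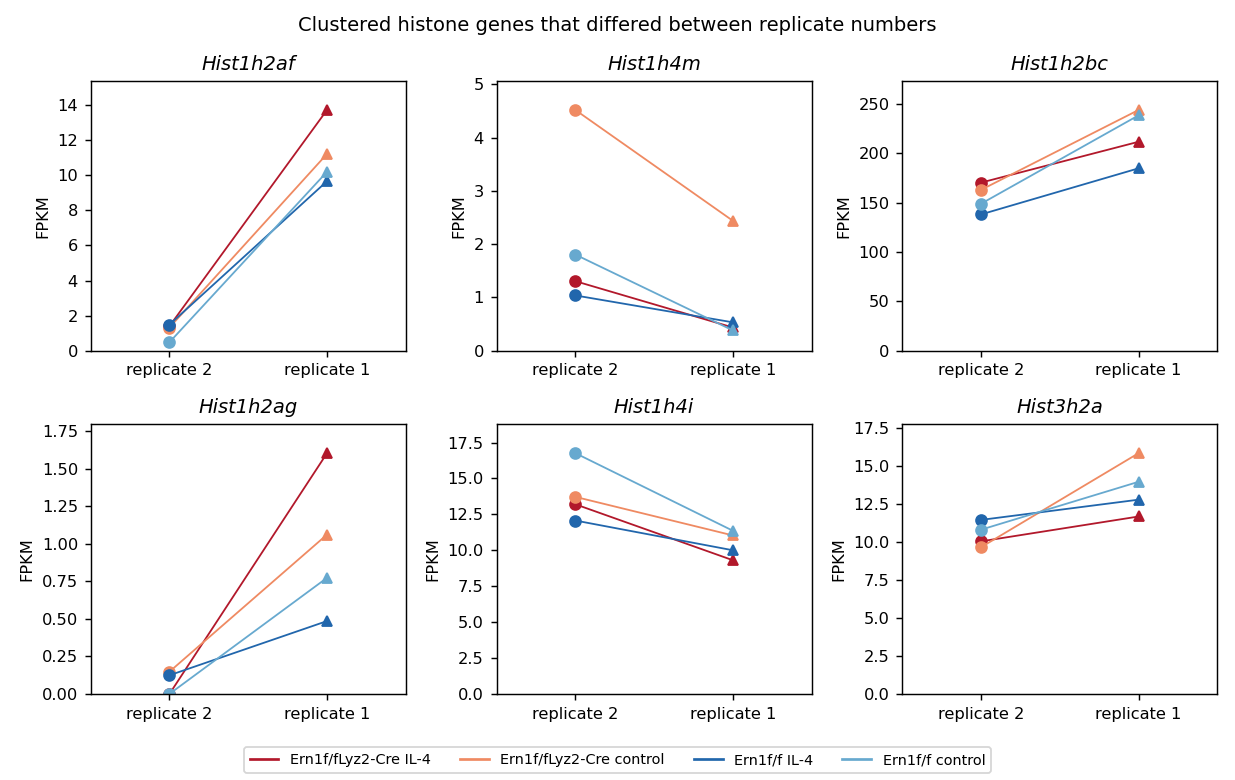
FPKM of the 6 clustered histone genes that differed between the replicate numbers, with replicate 2 (circles) left of replicate 1 (triangles) and a line joining the libraries of each group. Hist1h2af, Hist1h2bc, Hist1h2ag and Hist3h2a are lower and Hist1h4m and Hist1h4i higher in replicate 2 of every group.

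Other RNAs that, like most histone mRNAs, have no poly(A) tail varied widely between libraries, and not in 1 direction. Rpph1, the RNA of the tRNA-processing enzyme RNase P, measured 7.42 and 214 FPKM in Ern1f/fLyz2-Cre IL-4, 625 and 233 FPKM in Ern1f/fLyz2-Cre control, 424 and 85.3 FPKM in Ern1f/f IL-4 and 93.4 and 60.6 FPKM in Ern1f/f control libraries. Rmrp, the RNA of the related enzyme RNase MRP, was at 0 and 350.2 FPKM, 396 and 101 FPKM, 402 and 40.6 FPKM, and 82.2 and 22.1 FPKM in the same groups. In Ern1f/fLyz2-Cre IL-4 replicate 1 Rmrp was high while the H4 sum was the second lowest. The library with the highest H4 sum and most Rpph1 was Ern1f/fLyz2-Cre control replicate 2, and the one with the lowest H4 sum and least Rpph1 and Rmrp was Ern1f/fLyz2-Cre IL-4 replicate 2. That control library was also the highest of all 8 for 8 of the 30 tested histone genes, more than any other library. Of 17 such RNAs tested, 11 were higher with IL-4 in Ern1f/fLyz2-Cre cells (median log2 difference 0.71), against a median of -0.63 for the H4 genes. The small nucleolar RNAs Snord22 (7.08) and Snora24 (4.91), named after their values were seen, had an unadjusted p under 0.05 there, and both were higher. Of the 17 none was called by limma in any comparison other than the replicate number, where 2 were lower. Whether the capture of tailless RNA differed between libraries was not tested.

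**Figure D5:**
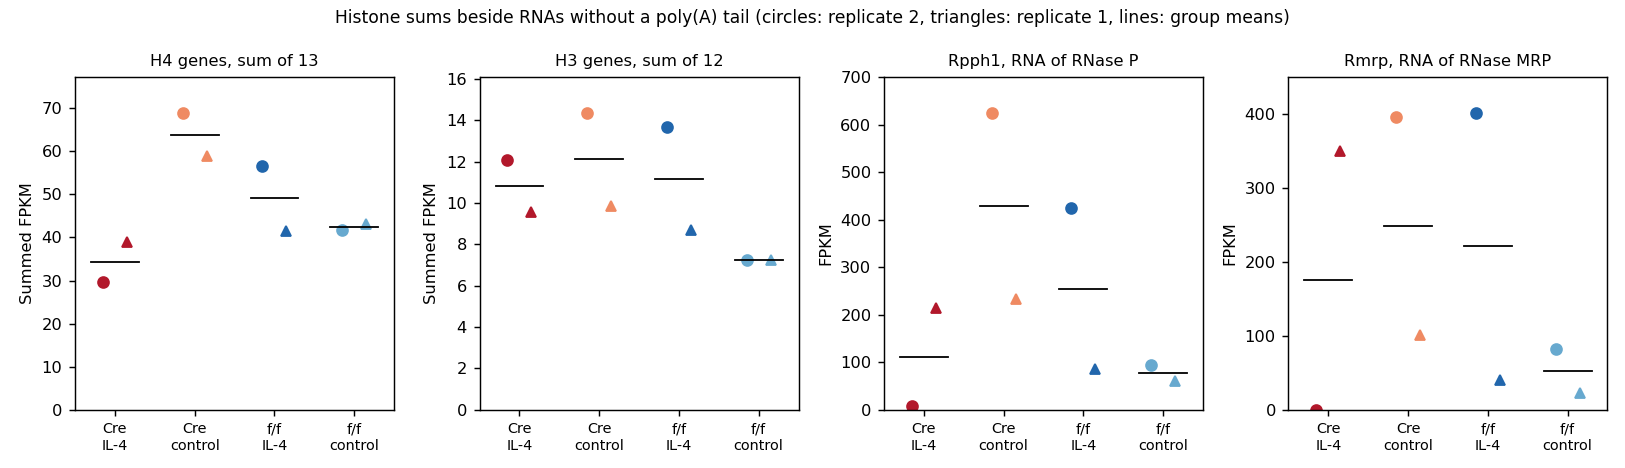
Summed FPKM of the H4 and H3 genes and FPKM of Rpph1 and Rmrp in the 8 libraries, by group (circles replicate 2, triangles replicate 1, lines group means). In Ern1f/fLyz2-Cre control replicate 2 the H4 sum (69.0 FPKM) and Rpph1 (625 FPKM) are at their highest, and in Ern1f/fLyz2-Cre IL-4 replicate 2 they are at their lowest (29.6 and 7.42 FPKM).

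Genes for DNA replication and S phase, the phase in which these histone genes are normally used, were set beside them as a list. With IL-4 they had higher levels for 42 of 43 in Ern1f/fLyz2-Cre cells (median log2 difference 0.39, against -0.02 over all genes) and for 41 of 43 in Ern1f/f cells (0.42, against -0.04). None of the 43 was called by limma, with 11 and 5 at an unadjusted p under 0.05, and with the replicate block 4 and 1 were called higher. Pcna, the sliding clamp of the replication fork, measured 449 and 341 FPKM in Ern1f/fLyz2-Cre IL-4, 230.2 and 196 FPKM in Ern1f/fLyz2-Cre control, 344 and 349 FPKM in Ern1f/f IL-4 and 205 and 227 FPKM in Ern1f/f control libraries. All 4 IL-4 libraries were above all 4 controls. The histone median was -0.24 in Ern1f/fLyz2-Cre and 0.21 in Ern1f/f cells in the same comparisons.

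For genotype in control cells, the replication list had 19 of 43 genes higher in Ern1f/fLyz2-Cre, with a median of -0.01, while the mitosis list had 19 of 19 with higher levels and a median of 0.19. For the interaction the mitosis list had 1 of 19 higher, with a median of -0.18. No gene of either list was called in these comparisons by limma, and in the unblocked fit none was under an unadjusted p of 0.05. With the block 1 replication gene was, for genotype in control cells.

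Histone genes outside the clusters make the variants that are deposited without replication, and their mRNAs are polyadenylated in general. H3f3a, which encodes H3.3, measured 291 and 317 FPKM in Ern1f/fLyz2-Cre IL-4, 394 and 422 FPKM in Ern1f/fLyz2-Cre control, 286 and 293 FPKM in Ern1f/f IL-4 and 369 and 404 FPKM in Ern1f/f control libraries. It was lower with IL-4 in both genotypes, by -0.42 ± 0.13 and -0.41 ± 0.13 on the log2 scale (SE, limma adjusted p = 0.460 and 0.586). H2afz, the H2A.Z gene, stayed between 184 and 260 FPKM. Of the 11 such genes tested none was called for IL-4, genotype or the interaction, with 1 at an unadjusted p under 0.05 in each IL-4 comparison, and 5 were lower in replicate 2.

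Genes that serve histone mRNA and protein were set beside them too. Slbp, the stem-loop binding protein, lay between 16.1 and 24.0 FPKM, and differed by -0.27 ± 0.08 between replicate 2 and 1 (limma adjusted p = 0.0482). Of 21 tested genes for the transcription, end processing and decay of histone mRNA none was called by limma for IL-4, genotype or the interaction, blocked or not, and in the unblocked fit 1 was under an unadjusted p of 0.05 (IL-4 in Ern1f/fLyz2-Cre cells). Of 22 genes for histone chaperones and import, such as Npm1 (226 to 264 FPKM), 1 was called higher with IL-4 in Ern1f/fLyz2-Cre cells, with the block only. Among 7 tested neighbours of the Hist1 cluster, the iron-regulating gene Hfe measured 67.1 and 75.2 FPKM in Ern1f/fLyz2-Cre IL-4, 29.6 and 47.1 FPKM in Ern1f/fLyz2-Cre control, 57.3 and 79.7 FPKM in Ern1f/f IL-4 and 27.0 and 47.4 FPKM in Ern1f/f control libraries. Each IL-4 library was above the 4 controls (log2 difference 0.91 ± 0.35 in Ern1f/fLyz2-Cre, limma adjusted p = 0.561, and 0.90 ± 0.35 in Ern1f/f, limma adjusted p = 0.783). With the replicate block Hfe rose in Ern1f/fLyz2-Cre cells (limma adjusted p = 0.0396), and in Ern1f/f cells its adjusted p was 0.0509.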

How the data were processed

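RNA-seq of 8 libraries was used. The authors deposited a gene table per library with FPKM values and their confidence bounds, and no counts. TopHat 1.4.1, Cufflinks 1.3.0 and mm10 are named in the submitters' processing notes, without their roles. Selection of poly(A) RNA, the counting of fragments with several matches and strand are not given in the sources used here.

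Each table had 23838 rows and 23354 symbols, and rows sharing a symbol were summed, which touched 5 histone genes. Groups follow the titles. Depth is known only through the fragments implied by the bounds, as the square of 2 × FPKM / (upper bound − FPKM). Tests used limma 3.58.1 (R 4.3.3, variance trend) on log2(FPKM + 1), on the 10934 symbols that reached 1 FPKM in 2 or more libraries, with all 8 libraries in 1 fit of the 4 groups and Benjamini-Hochberg adjustment over all symbols (threshold 0.05). Fold changes on this scale understate the changes of low genes, and with 2 libraries a group the intervals are wide. A second fit had the replicate number as a block. Deviations from the group means of same-numbered libraries correlated for each of the 6 group pairs (r = 0.69 to 0.83 over all genes and 0.28 to 0.66 over the 30 histone genes), and this, not the labels, is where the pairing comes from. The scripts were tested on simulated data. Alternatives were other pseudocounts, filters, scalings and variance priors, leaving out each library, and genotype taken from the genotype entry.

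The histone genes and the gene lists were chosen with earlier results of these data known. Values in every library are given for the highest 2 genes of each type and for those with the smallest p in a comparison. Stem-loops were searched in GENCODE M21 transcripts and promoters in RefSeq (GRCm38.p6). Python 3.11.15, pandas 2.3.3 and matplotlib 3.10.9 were used.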

Additional observations from a re-analysis of the deposited data

Results flagged for a closer look

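For 6 of the tested histone genes the libraries did not overlap in either of 2 matched comparisons (IL-4 in each genotype, or genotype in each treatment) and lay apart in opposite directions, and the difference between them was tested as an interaction (log2 scale, limma, Benjamini-Hochberg adjusted p of 1 after rounding in each case). The rule was applied to the histone genes only, so this count has no share over all genes beside it. Genes chosen for opposite differences have an interaction by that choice, so the interactions below add no support. Hist1h2ak was lower with IL-4 in every Ern1f/fLyz2-Cre library and higher in every Ern1f/f library, and equally opposite by genotype, with an interaction of -1.97. For Hist2h2ac the IL-4 difference had an interaction of -1.21. The genotype difference with IL-4 and in control cells had an interaction of -1.64 for Hist1h4b, -2.52 for Hist1h4d and -1.34 for Hist1h4k. Hist2h2bb had an interaction of 0.57 for the IL-4 difference, and its unadjusted p did not pass 0.05. None of these passed the adjustment, and all but Hist1h4k rest on at most 25 implied fragments in any library.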

How the results depend on the processing

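Of the counts of histone genes called, 141 alternative values were within 1.5 times the reported count and 8 were not. Outside the replicate comparison the reported count was 0, so an unchanged count there was 0 against 0. Of the log2 differences 463 kept direction and side of the threshold, 24 fell short of it, 1 newly passed it and 9 turned in sign. Only the replicate comparison had calls that could be lost, so the 24 belong to it. Uncalled differences that stayed uncalled are among the 463. With the replicate number as a block, the count for IL-4 in Ern1f/fLyz2-Cre was 1 in place of 0. With the block and 1 library left out, alternatives chosen after seeing the data, it ranged from 0 to 2. The block changed no other count of histone genes called. With genotype taken from the genotype entry, 6 histone genes were called in control cells and 4 in IL-4 cells. There genotype equals the replicate number. The share of all genes called under that entry is not given here, so these counts are no result about histone genes. In the replicate comparison over all 8 libraries 33.4% of all genes were called. Under the genotype entry the log2 differences were 0.10 for Hist2h2bb and -0.84 for Hist1h4c in control cells. In IL-4 cells the difference was 1.10 for Hist1h4d, and each was of opposite sign. With median-of-ratios scaling Hist1h1c had 0.022 for IL-4 in Ern1f/f. Leaving out each library, Hist1h2bc ranged from -0.36 to 0.22 for IL-4 in Ern1f/fLyz2-Cre and from -0.58 to 0.10 in Ern1f/f, and Hist1h1c from -0.27 to 0.26 in Ern1f/f. The causes were not tested. The replicate comparison called 4 to 7 histone genes under its alternatives. Depth limits single H2a and H4 genes, whose small values rest on few fragments.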
